A study of Arabidopsis thaliana with 12 samples.

Results

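The tubulin genes measured here were 2 alpha-tubulins, TUA1 (AT1G64740) and TUA6 (AT4G14960), and 5 beta-tubulins, TUB1 (AT1G75780), TUB5 (AT1G20010), TUB6 (AT5G12250), TUB7 (AT2G29550) and TUB9 (AT4G20890). They were taken from the supplied probe set annotation as all probe sets tied to 1 gene whose symbol was TUA or TUB followed by a number, and made up 7 of 13513 probe sets of 1 gene and of 22746 probe sets in all. The RefSeq table lists 15 tubulin genes of these names, 6 alpha and 9 beta. TUA3 and TUA5 shared 1 probe set, which was no member, and the remaining 6 (TUA2, TUA4, TUB2, TUB3, TUB4 and TUB8) were not analysed here.

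RNA came from imbibed Arabidopsis thaliana seeds of the wild type Col-0 and of pil5 (Salk_072677), a line with an insertion in PIL5, which encodes a bHLH transcription factor that binds phytochrome. Seeds of the dark groups received 5 min of far-red light (3.2 umol per square metre and second) and seeds of the red groups received the same pulse followed by 5 min of red light (13 umol per square metre and second). All then stayed in the dark for 12 h on aqueous medium, and the group names dark and red refer to the pulses alone. With 2 genotypes and 2 light programmes this gave 4 groups of 3 biological replicates, numbered 1 to 3 in the labels, on 12 Affymetrix arrays. The mutant was represented by 1 insertion line, and the labels do not give the age or number of the seeds. PIL5 (AT2G20180) had 0 probe sets in the annotation, so the labels could not be checked by its transcript.

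Alpha- and beta-tubulin form the dimer from which microtubules are built, and in plants several genes encode each subunit. In growing plant cells cortical microtubules guide the complexes that lay down cellulose, and thereby the direction in which a cell expands. PIL5 holds back germination in the dark, and phytochrome that has been activated by red light leads to its breakdown. In tomato seeds beta-tubulin is known to accumulate during imbibition, before the radicle emerges.

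Values are log2 signals as deposited, on which a difference of 1 is 2-fold, and levels are not set against each other between genes because each probe set has its own response. Array medians were 6.08 to 6.28 and lower quartiles 4.20 to 4.36. Every log2 change below comes from limma fitted to all 12 arrays, with its standard error (SE, n = 3 arrays per group) and a p-value adjusted over the 22746 probe sets, and a gene is called to differ where the adjusted p is below 0.05. Arrays with the same replicate number deviated from their group means in the same direction across probe sets (r between 0.17 and 0.71 for all 18 pairs of arrays of 1 number from different groups). The same fit with the replicate number as a block, which compares arrays within a number, is therefore given wherever it changes the call of a tubulin. For other genes it is given in the comparisons described. Whole seeds were extracted, so fewer cells of a type and less RNA per cell cannot be told apart.

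The arrays pil5 red 3 and pil5 dark 3 stood apart in different measures. In pil5 red 3 the bacterial spike-in bioC averaged 7.05, against 8.34 to 8.64 on the other arrays. In pil5 dark 3 the array median, 6.08, was the lowest and the lower quartile, 4.36, the highest of the 12. TUB6 and TUB7 were lowest on pil5 dark 3, and TUA6, TUB1, TUB5 and TUB9 on pil5 red 3. Between these arrays 958 probe sets had a 2-fold or larger difference, which cannot be assigned to either, while pil5 red and dark of numbers 1 and 2 had 1 and 0 such probe sets. Of 12 seed storage and oil body genes looked up to check the tissue, OLEO3, an oil body protein, was measured, with group means between 9.22 and 10.04. Of 8 green leaf genes RCA, the activase of Rubisco, was measured, with group means between 6.98 and 7.73.

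The first comparison was of the red with the dark groups in wild-type seeds. TUB5 and TUB1 were higher in Col-0 red than in Col-0 dark, by 4.19-fold and 1.94-fold, and both were called when the replicate number was a block. TUA6 and TUB9 were higher in each number by smaller amounts and were not called, and TUA1 and TUB6 were lower in each number and were not called either. Without the block, 0 of the 7 genes passed, where 15.1% of all probe sets did. With it, 2 of 7 passed, both higher, where 26.4% of all probe sets passed and 13.4% were higher.

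TUB5, a beta-tubulin, had the widest range of the 7 genes over the arrays. In Col-0 dark it read 7.20, 6.29 and 4.91 in numbers 1, 2 and 3. In Col-0 red it read 8.97, 8.24 and 7.39. The lowest red array lay just above the highest dark array, so the groups did not overlap, although the numbers within each group lay far apart. Taken within a number, TUB5 was higher after red by 1.77, 1.95 and 2.48. The dark array of number 3, at 4.91, lay toward the lower end of the signal scale, with 37.7% of probe sets below it. The table holds no background measure, so the sizes are those of the signals as deposited. The log2 change was 2.07 with an SE of 0.77 and an adjusted p of 0.10 in limma, and with the block the SE was 0.14 and the adjusted p was 5.1e-05. Of the spread of TUB5 within groups, measured as a sum of squares, 97.7% followed the replicate number, against a median of 46.6% over all probe sets, and 0.422% of probe sets had a share as high.

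**Figure D1:**
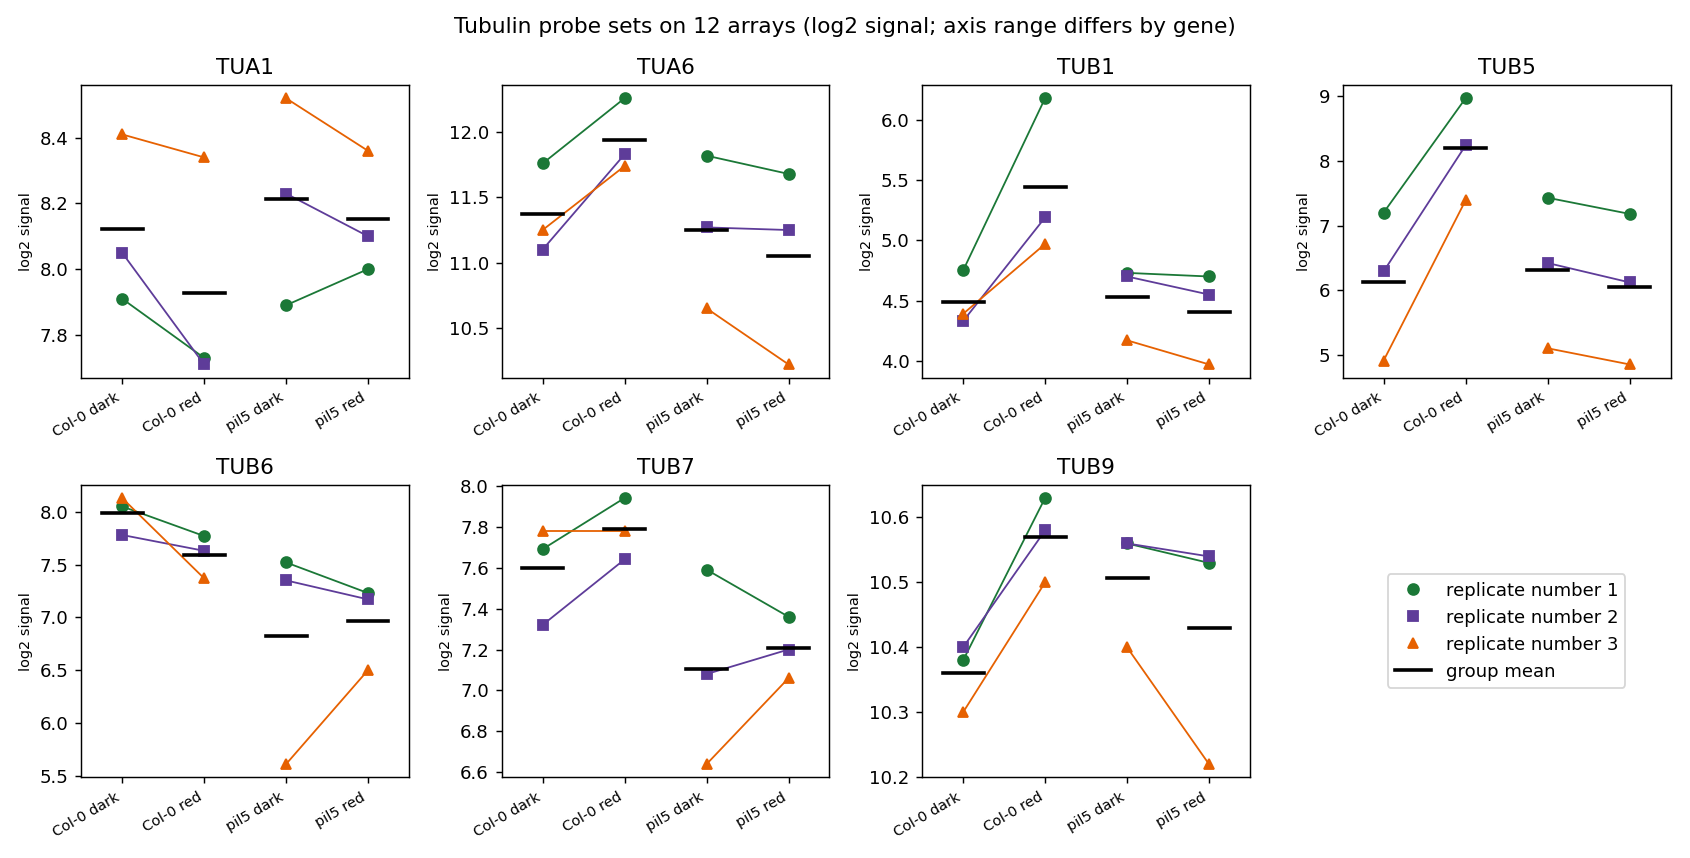
Log2 signal (y axis, own range per gene) of the 7 tubulin probe sets in the 4 groups (x axis); symbols give the replicate number, thin lines join dark and red arrays of 1 number and genotype, and black bars are group means. TUB5 and TUB1 were higher after red in Col-0 in each of the 3 numbers, and TUB5 lay at a different level in each number.

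TUB1, a beta-tubulin whose transcript is known to be lowered by light in seedling hypocotyls, lay near the lower end of the signal scale. It read 4.75, 4.33 and 4.39 in Col-0 dark, close to the lower quartile of the arrays. In Col-0 red it read 6.18, 5.19 and 4.97, above all 3 dark arrays. The log2 change was 0.96 (SE 0.31, limma adjusted p = 0.060, and 0.0040 with the block). Without the block TUB1 was called when Col-0 red 3 (1.2, adjusted p = 0.038) or pil5 red 3 (0.96, adjusted p = 0.037) was left out, and its change was 0.59 (adjusted p = 0.19) without Col-0 red 1, or 0.72 (adjusted p = 0.014) with the block. With the block the calls of TUB5 and TUB1 were kept without any 1 of the 12 arrays, with adjusted p up to 0.00086 for TUB5 and 0.028 for TUB1.

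TUA6, an alpha-tubulin widely used to mark microtubules in living plants, read 11.76, 11.10 and 11.25 in Col-0 dark and 12.26, 11.83 and 11.74 in Col-0 red. The groups overlapped by a narrow margin, and within the numbers TUA6 was higher by 0.50, 0.73 and 0.49 after red. Its log2 change was 0.57 (SE 0.38, limma adjusted p = 0.40, and 0.063 with the block), so it did not pass in either fit. TUB9, a beta-tubulin known for its expression in pollen, read 10.38, 10.40 and 10.30 in Col-0 dark and 10.63, 10.58 and 10.50 in Col-0 red. Those groups did not overlap, but the log2 change was only 0.21 (SE 0.10, limma adjusted p = 0.21, and 0.065 with the block).

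TUB6, a beta-tubulin, read 8.05, 7.78 and 8.13 in Col-0 dark and 7.77, 7.63 and 7.37 in Col-0 red, with all red arrays below the dark arrays. Its log2 change was -0.40 (SE 0.42, limma adjusted p = 0.66). That SE pools the spread of all 4 groups. The SD of TUB6 was 0.19 in Col-0 dark, 0.21 in Col-0 red, 1.05 in pil5 dark and 0.41 in pil5 red. For TUA1, an alpha-tubulin known mainly from pollen, the log2 change was -0.19 (SE 0.21, adjusted p = 0.68), and TUB7, a beta-tubulin, had 0.18 (SE 0.21, adjusted p = 0.70). The groups did not overlap for 4 of the 7 genes, TUB1, TUB5, TUB6 and TUB9, against 33.3% of all probe sets. The median log2 change of the 7 genes was 0.21, beside 0.00 over all probe sets, and at an unadjusted p below 0.05 there were 2 of 7 genes beside 26.7% of all probe sets.

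The second comparison was of the genotypes without a red pulse. TUB6 was lower in pil5 dark than in Col-0 dark by 2.23-fold and was called with the block. The other 6 genes did not pass, and TUB5 and TUB1, which were called after red in Col-0, had log2 changes of 0.19 and 0.04. Without the block 0 of 7 genes passed, where 12.1% of all probe sets did, and with it 1 of 7 passed, where 23.8% of all probe sets passed and 12.2% were lower.

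TUB6 read 7.52, 7.35 and 5.61 in pil5 dark, all below the lowest Col-0 dark array at 7.78. The third pil5 dark array was the lowest of all 12 for this gene. Within numbers the difference was -0.54, -0.43 and -2.51, hence by far the largest in number 3. The log2 change was -1.16 (SE 0.42, limma adjusted p = 0.10, and 0.030 with the block). The call with the block ended without pil5 dark 3 (-0.65, adjusted p = 0.055), Col-0 dark 3 (-0.77, adjusted p = 0.096) or Col-0 dark 1 (-1.32, adjusted p = 0.059). With 1 array left out the difference stayed negative, between -1.42 and -0.65 with the block and between -1.51 and -0.55 without it, and -0.55 was the value without pil5 dark 3.

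TUB7 was lower in pil5 dark in each number, at 7.59, 7.08 and 6.64 against 7.69, 7.32 and 7.78 in Col-0 dark, and the groups overlapped. Its log2 change was -0.50 (SE 0.21, limma adjusted p = 0.17, and 0.064 with the block). Without the block it was called when pil5 dark 1 was left out (-0.74, adjusted p = 0.039), and without pil5 dark 3 it was -0.26 (adjusted p = 0.49, and 0.24 with the block). TUB5 read 7.43, 6.42 and 5.10 in pil5 dark, within 0.23 of the Col-0 dark array of the same number. With the block its difference of 0.19 had a 95% interval from -0.12 to 0.50 on the log2 scale, which does not reach the size of the red effect in Col-0. Without the block that interval was wider, from -1.51 to 1.88, and overlapped the interval of the red effect in Col-0, from 0.37 to 3.77. TUB1 read 4.73, 4.70 and 4.17, with a difference of 0.04. Its 95% interval ran from -0.36 to 0.44 with the block and from -0.63 to 0.72 without it. TUA6, TUB9 and TUA1 had log2 changes of -0.12, 0.15 and 0.09 (limma adjusted p = 0.91, 0.44 and 0.87). The median over the 7 genes was 0.04 (0.01 over all probe sets), 2 groups did not overlap (TUB6 and TUB9) beside 29.5% of all probe sets, and 2 of 7 genes had an unadjusted p below 0.05 beside 24.8% of all.

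**Figure D2:**
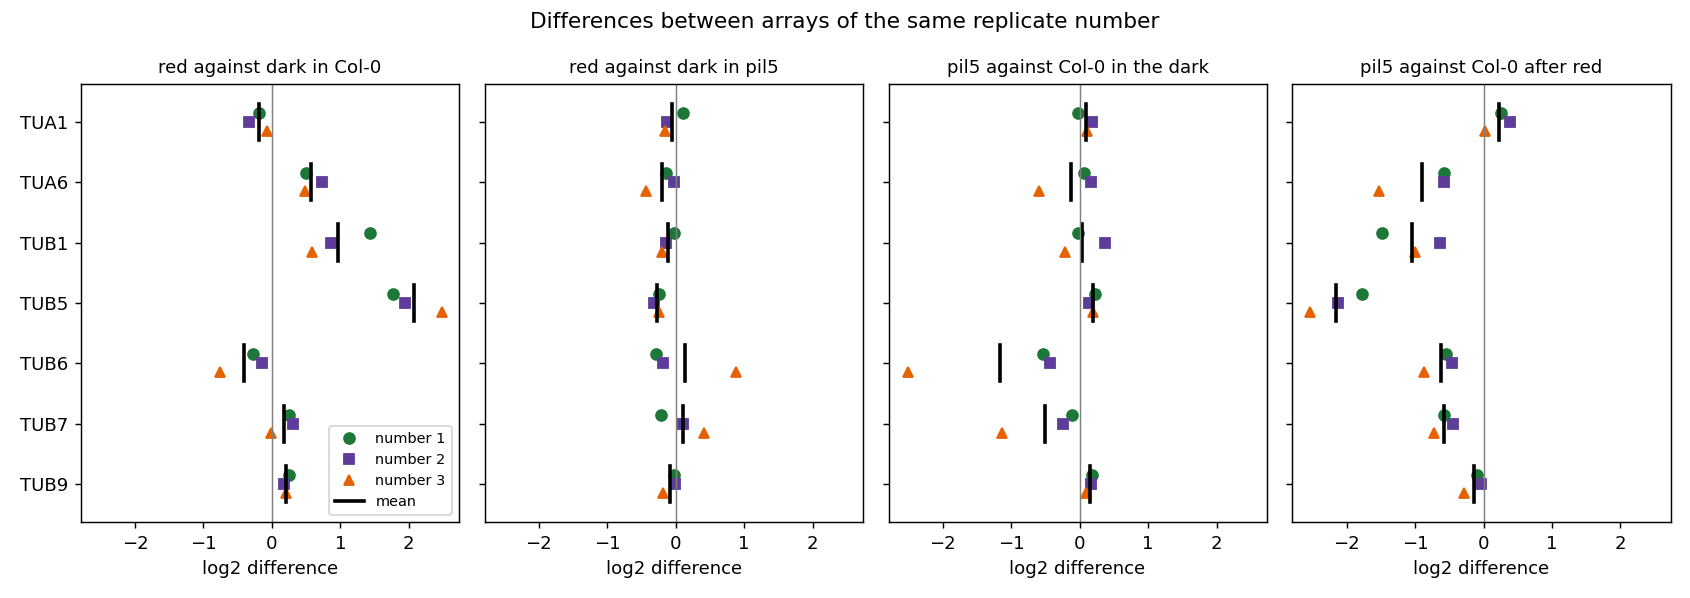
Log2 difference (x axis) between arrays of the same replicate number for each tubulin (rows) in 4 comparisons (panels); symbols are the 3 numbers and black bars their mean. The TUB5 differences of the red pulse lay at 1.77, 1.95 and 2.48 in Col-0 and between -0.31 and -0.25 in pil5, and the TUB6 difference of pil5 dark was largest in number 3.

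The third comparison asked for the effect of the red pulse in pil5. No tubulin was called with or without the block, nor was any probe set of the array (0%). At an unadjusted p below 0.05 limma gave 0 of 7 tubulins beside 1.17% of all probe sets. TUB5 read 7.18, 6.12 and 4.85 in pil5 red, close to the pil5 dark arrays, with differences of -0.25, -0.31 and -0.25 within numbers. The log2 change was -0.27 (SE 0.77, limma adjusted p = 1). Its 95% interval ran from -0.58 to 0.04 with the block and from -1.97 to 1.43 without it. TUB1 read 4.70, 4.55 and 3.97 in pil5 red, with a log2 change of -0.12. The 95% interval of TUB1 ran from -0.52 to 0.28 with the block and from -0.80 to 0.55 without it.

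For TUB6 the sign of the red effect in pil5 rested on number 3. The differences were -0.29, -0.18 and 0.88, since the pil5 dark array of that number was so low. The mean was 0.14 (SE 0.42), and without pil5 dark 3 it was -0.47. TUB7 behaved alike in number 3, with differences of -0.22, 0.11 and 0.42 and a mean of 0.10 (SE 0.21). TUA6, TUB9 and TUA1 had log2 changes of -0.20, -0.08 and -0.06. The groups overlapped for all 7 genes, while 4.46% of all probe sets did not overlap, and the median over the 7 genes was -0.08 beside -0.01 over all probe sets. Without pil5 red 3, limma again called 0 of the 7 genes with or without the block, but the share over all probe sets was not computed for these fits.

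The genotypes were also compared among the seeds that had received red light. TUB5, TUB1 and TUA6 were lower in pil5, by 4.44-fold, 2.06-fold and 1.86-fold, and were called with the block. TUB6, TUB7 and TUB9 were also lower in each number but did not pass, and TUA1 was higher in each number and did not pass. Without the block 0 of 7 genes passed, where 0.193% of all probe sets did. With it 3 of 7 passed, all lower, where 8.27% of all probe sets passed and 4.70% were lower. Its Col-0 red arrays are the same ones as in the red comparison of Col-0, so the results of those comparisons are not independent.

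Within numbers the TUB5 difference of pil5 red from Col-0 red was -1.78, -2.13 and -2.54. The highest pil5 red array, at 7.18, lay below the lowest Col-0 red array, at 7.39. Its log2 change was -2.15 (SE 0.77, limma adjusted p = 0.29), and with the block the SE was 0.14 and the adjusted p was 0.00019. TUB1 differed by -1.48, -0.64 and -1.0 within numbers, without overlap of the groups. Its log2 change was -1.04 (SE 0.31, limma adjusted p = 0.20, and 0.0093 with the block). The blocked calls of TUB5 and TUB1 were kept without any 1 of the 12 arrays, pil5 red 3 and pil5 dark 3 included, with log2 changes from -2.32 to -1.95 for TUB5 and from -1.19 to -0.80 for TUB1. Without the block TUB1 was at -0.67 (adjusted p = 0.63) when Col-0 red 1 was left out.

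TUA6 read 11.68, 11.25 and 10.22 in pil5 red, all below the Col-0 red arrays. The difference was -0.58, -0.58 and -1.52 within numbers, and so largest in number 3. The log2 change was -0.90 (SE 0.38, limma adjusted p = 0.38, and 0.026 with the block). That call ended without Col-0 red 1 (-1.0, adjusted p = 0.065), Col-0 red 2 (-0.94, adjusted p = 0.090) or Col-0 red 3 (-0.74, adjusted p = 0.12). Without pil5 red 3 the change was -0.63 and still called with the block (adjusted p = 0.029), and it was -0.48 without the block (adjusted p = 0.82).

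TUB6 read 7.23, 7.17 and 6.50 in pil5 red, below the Col-0 red arrays, with a log2 change of -0.62 (SE 0.42, limma adjusted p = 0.59) that was -0.39 without pil5 red 3. TUB7 read 7.36, 7.20 and 7.06 in pil5 red and 7.94, 7.64 and 7.78 in Col-0 red, without overlap. The log2 change of TUB7 was -0.58 (SE 0.21, limma adjusted p = 0.31, and 0.071 with the block). TUB9 and TUA1 had changes of -0.14 and 0.22 (adjusted p = 0.62 and 0.73). The groups did not overlap for 5 of 7 genes (TUA6, TUB1, TUB5, TUB6 and TUB7), against 16.7% of all probe sets. The median log2 change of the 7 genes was -0.62, beside 0.00 over all probe sets, and 4 of 7 genes had an unadjusted p below 0.05, beside 12.0% of all.

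The difference between the red effect in pil5 and that in Col-0 was tested directly as the interaction of genotype and light. TUB5 and TUB1 had a smaller red effect in pil5 than in Col-0 and were called with the block, the only 2 of the 7. Without the block 0 of 7 passed, where 6.34% of all probe sets did, and with it 2 of 7 passed, both negative, where 17.5% of all probe sets passed and 8.73% were negative. For TUB5 the difference of the red effects was -2.02, -2.26 and -2.73 in numbers 1, 2 and 3. Its estimate was -2.34 (SE 1.09, limma adjusted p = 0.25), and with the block the SE was 0.20 and the adjusted p was 0.00063, a call kept without any 1 array. For TUB1 the differences were -1.45, -1.01 and -0.78, with an estimate of -1.08 (SE 0.43, limma adjusted p = 0.17, and 0.020 with the block). The TUB1 call ended without Col-0 dark 1 (-1.01, adjusted p = 0.065), Col-0 dark 2 (-0.99, adjusted p = 0.067) or pil5 dark 2 (-0.95, adjusted p = 0.058).

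TUA6 and TUB9 also had a higher signal after red in Col-0 in each number, without passing. In pil5 the red effect was -0.14, -0.02 and -0.44 for TUA6 and -0.03, -0.01 and -0.19 for TUB9, so it was largest in number 3. Without pil5 red 3 it turned to 0.22 for TUA6 and 0.03 for TUB9 in the fit without the block. The interaction was -0.78 for TUA6 (SE 0.53, limma adjusted p = 0.48, and 0.092 with the block) and -0.29 for TUB9 (SE 0.14, limma adjusted p = 0.29, and 0.092 with the block). TUB6, TUB7 and TUA1 had estimates of 0.54, -0.08 and 0.14, with intervals that spanned 0 in both fits. The median over the 7 genes was -0.29, beside -0.01 over all probe sets, and 1 of 7 genes had an unadjusted p below 0.05, beside 21.2% of all. Without pil5 red 3 that median was -0.18.

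**Figure D3:**
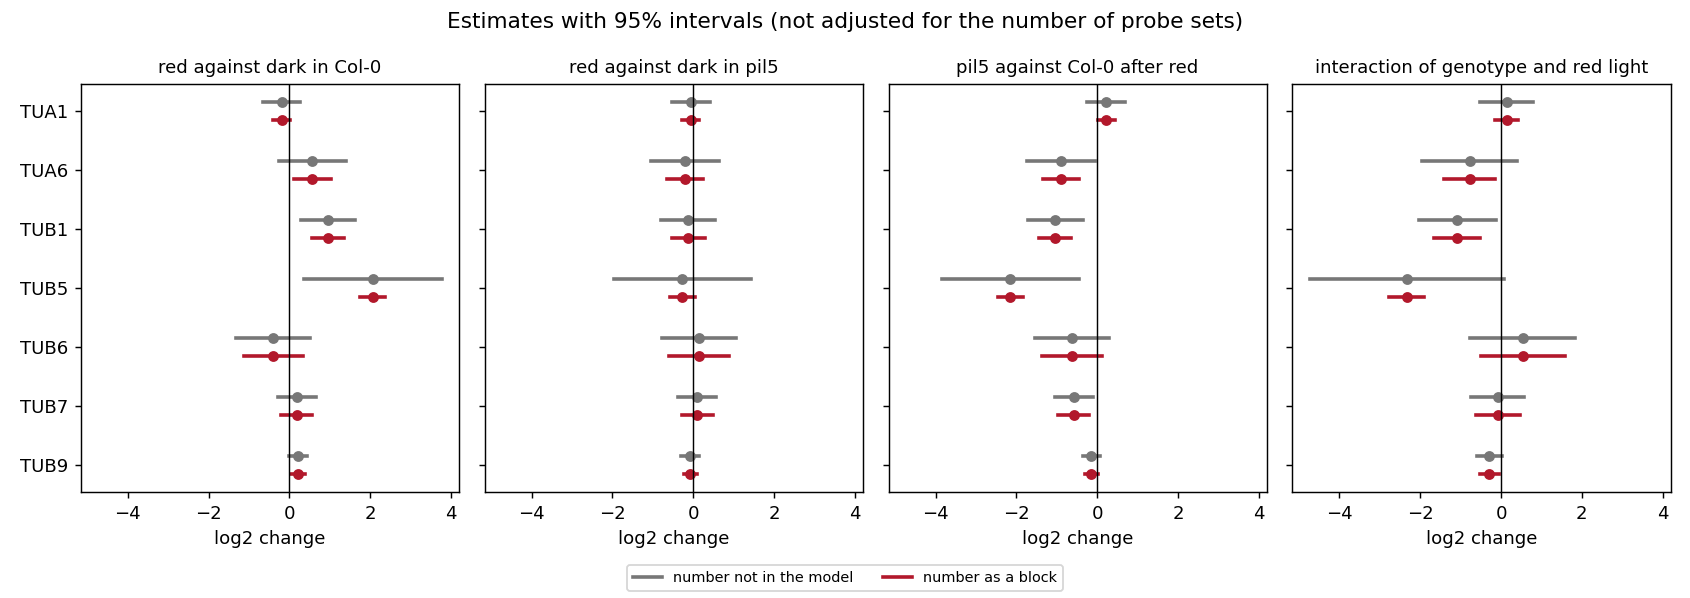
Log2 change (x axis) of each tubulin (rows) in 4 comparisons (panels), with points for the estimates and bars for 95% intervals from limma, which are not adjusted for the number of probe sets; grey is the fit without and red the fit with the replicate number as a block. For the red effect on TUB5 in Col-0 the interval ran from 0.37 to 3.77 without the block and from 1.76 to 2.38 with it.

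The remaining comparisons were those across both genotype and light. In pil5 dark against Col-0 red, TUB5, TUB1 and TUB7 were lower with the block, with log2 changes of -1.88, -0.92 and -0.68 (limma adjusted p = 0.00041, 0.016 and 0.042), where 7.73% of all probe sets passed and 4.28% were lower. Without the block 0 of 7 passed, where 0.448% of all probe sets did. The groups did not overlap for 2 of 7 genes, TUB1 and TUB7, against 16.9% of all probe sets. The TUB5 call with the block was kept without any 1 array. The TUB1 call ended without Col-0 red 1 (-0.67, adjusted p = 0.051), pil5 dark 1 (-0.80, adjusted p = 0.071) or pil5 dark 3 (-0.91, adjusted p = 0.061), and the TUB7 call ended without any of 9 of the 12 arrays, with adjusted p up to 0.16. In pil5 red against Col-0 dark, 0 of 7 genes were called without the block, where 6.66% of all probe sets were, and 0 of 7 with it, where 18.9% were. Only TUB6 had groups that did not overlap, against 22% of all probe sets. There 1 of 7 genes, TUB6, had an unadjusted p below 0.05 without the block, with a log2 change of -1.02 (SE 0.42, limma adjusted p = 0.18, and 0.058 with the block), and without pil5 dark 3 its adjusted p was 0.017 in the fit without the block. Without Col-0 dark 3 the TUB6 change was -0.63 with the block (adjusted p = 0.19).

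Put in order of their group means, TUB5, TUB1, TUA6, TUB7 and TUB9 were highest in Col-0 red. TUB5 stood at 8.20 ± 0.79 (SD, n = 3) in Col-0 red, then at 6.32 ± 1.17 in pil5 dark, 6.13 ± 1.15 in Col-0 dark and 6.05 ± 1.17 in pil5 red. Only the step below Col-0 red was called, with the block, and the gaps of 0.19 and 0.08 between the other neighbours were not. The order was the same for TUB1, at 5.45 ± 0.64, 4.53 ± 0.31, 4.49 ± 0.23 and 4.41 ± 0.38, and again only its first gap, 0.92, was called with the block.

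For the other 5 genes no gap between neighbouring groups was called in either fit. TUA6 went from 11.95 ± 0.28 in Col-0 red through 11.37 ± 0.34 in Col-0 dark and 11.25 ± 0.59 in pil5 dark to 11.05 ± 0.75 in pil5 red. TUB6 was instead highest in Col-0 dark, at 7.99 ± 0.19, followed by Col-0 red at 7.59 ± 0.21, pil5 red at 6.97 ± 0.41 and pil5 dark at 6.83 ± 1.05. TUB7 was at 7.79 ± 0.15 in Col-0 red, 7.60 ± 0.24 in Col-0 dark, 7.21 ± 0.15 in pil5 red and 7.10 ± 0.47 in pil5 dark. The group means of TUB9 and TUA1 lay close together. TUB9 ran from 10.57 ± 0.07 in Col-0 red to 10.36 ± 0.05 in Col-0 dark, with pil5 dark at 10.51 ± 0.09 and pil5 red at 10.43 ± 0.18 between them. TUA1 was lowest in Col-0 red, going from 8.21 ± 0.31 in pil5 dark through 8.15 ± 0.19 in pil5 red and 8.12 ± 0.26 in Col-0 dark to 7.93 ± 0.36 in Col-0 red.

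Levels also differed between the replicate numbers, and not in the same direction for all 7 genes. On average over the 4 groups, TUB5 deviated from its group mean by 1.02 in number 1, 0.09 in number 2 and -1.11 in number 3. TUA6 deviated by 0.48, -0.04 and -0.44, and TUB1 by 0.37, -0.03 and -0.34, in the same direction as TUB5. TUA1 went the other way, at -0.22, -0.08 and 0.30, reading 7.91, 8.05 and 8.41 in Col-0 dark and 7.89, 8.23 and 8.52 in pil5 dark. The share of the within-group sum of squares that followed the number was 90.0% for TUA1, 76.9% for TUB9, 76.4% for TUA6, 71.9% for TUB1 and 45% for TUB6 and TUB7. The labels do not say what the numbers stand for beyond biological replicates.

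Over the 12 arrays the 6 tubulins other than TUA1 varied in the same direction. Their 15 pairs had Pearson correlations from 0.21, for TUB6 and TUB9, to 0.90, for TUB5 with TUA6 and with TUB1, with a median of 0.75. The 6 pairs with TUA1 ranged from -0.85, with TUB5, to -0.55. With the group means subtracted the medians were 0.77 and -0.71, so these relations were as strong between arrays of the same group. The arrays share 3 replicate numbers and a common normalization, and the correlations are given as a description.

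**Figure D4:**
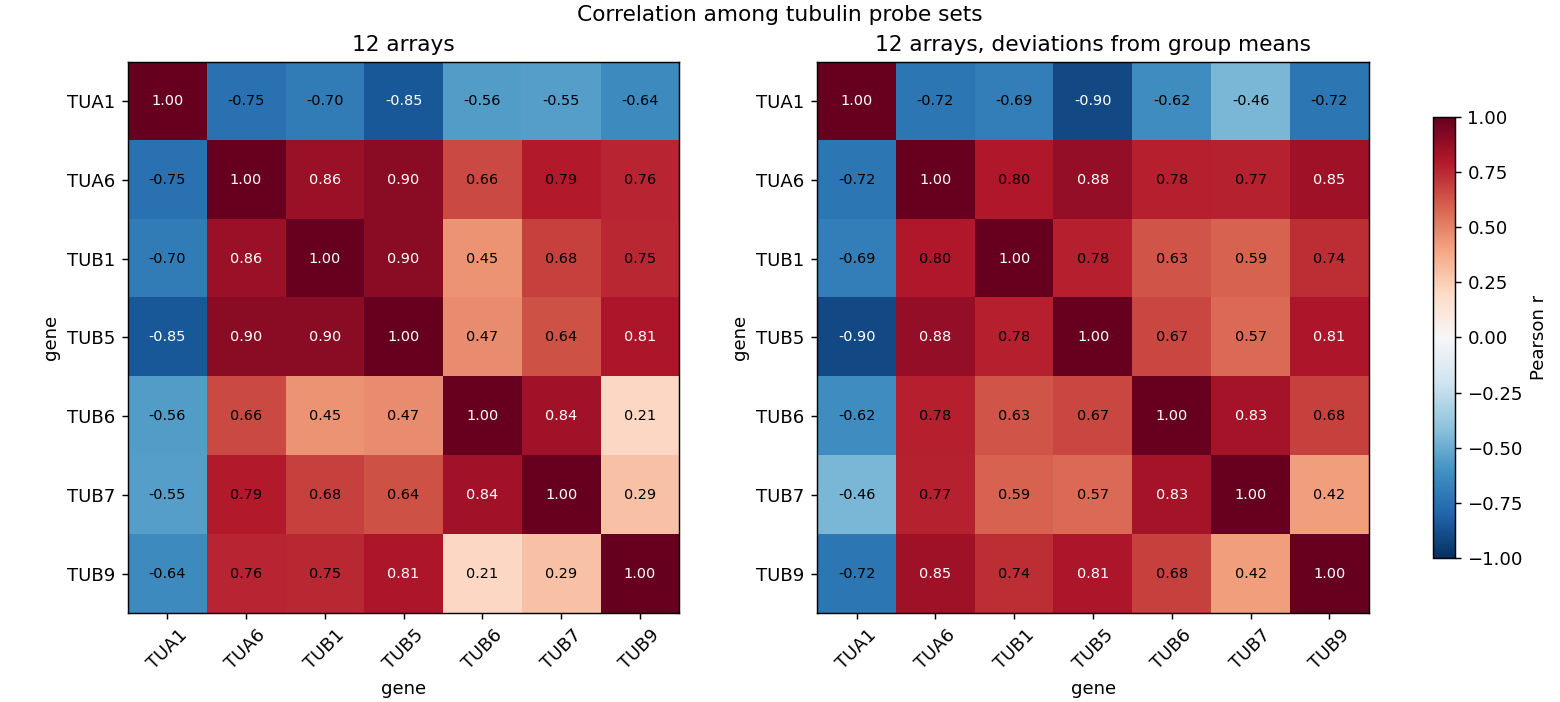
Pearson correlation (colour and printed value) between the log2 signals of the 7 tubulin probe sets over the 12 arrays, as measured (left) and after subtraction of group means (right). TUA1 correlated negatively with every other tubulin, from -0.85 to -0.55 in the left panel, and the other 15 pairs correlated positively.

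The probe set shared by the alpha-tubulins TUA3 and TUA5, whose signal cannot be divided between them, gave the values next to the members. It read 12.06, 11.94 and 12.06 in Col-0 dark and 12.47, 12.37 and 12.34 in Col-0 red, without overlap. The log2 change was 0.38 (SE 0.09, limma adjusted p = 0.016, and 0.0089 with the block). In the fit without the block that call ended without Col-0 red 1 (0.34, adjusted p = 0.072) or Col-0 dark 2 (0.34, adjusted p = 0.076). With the block it ended without Col-0 dark 2 (0.32, adjusted p = 0.055). In pil5 it read 12.25, 12.28 and 12.25 in the dark and 12.27, 12.29 and 12.04 after red, and its interaction of -0.44 was called with the block only (limma adjusted p = 0.061, and 0.032 with the block), a call that ended when any of 8 arrays was left out.

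Genes whose profile over the 12 arrays was most like the mean standardised profile of the 7 tubulins were taken from the 1493 other probe sets with 1 gene and a symbol. The 5 with the highest correlation were PYK10 (AT3G09260), a beta-glucosidase of endoplasmic reticulum bodies, at 0.97, CHLM (AT4G25080), a methyltransferase of chlorophyll synthesis, at 0.96, LSMT-L (AT1G14030) at 0.96, EXPA4 (AT2G39700), an expansin that loosens cell walls, at 0.95, and EMB2786 (AT3G17300) at 0.95. The 3 lowest were ATSRL1 (AT5G37370) at -0.96, MSRB3 (AT4G04800), a methionine sulfoxide reductase, at -0.92, and ATSIK (AT3G08760) at -0.90. In all, 21 genes exceeded 0.9. The members themselves correlated with that profile from 0.97 for TUA6 down to 0.71 for TUB6 and -0.70 for TUA1. Each member is part of that mean, so its value is not comparable with those of the other genes. The profile carries differences between replicate numbers as well as between groups, and which of these the likeness followed was not tested.

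Of the other microtubule, actin and cell cycle genes in 7 lists, 15 of 182 entries had a probe set of their own under a listed symbol, so the lists were covered only in part. After red in Col-0, 2 of the 15 were higher and 0 lower, and 3 were higher and 0 lower with the block, with a median log2 change of 0.05. Over all probe sets 15.1% were called, and 26.4% with the block, with 13.4% higher, so these counts were near the background. ACT11 (AT3G12110), an actin, read 4.63, 4.27 and 4.92 in Col-0 dark and 6.29, 5.56 and 6.46 in Col-0 red. Its groups lay well apart, with a log2 change of 1.5 (SE 0.27, limma adjusted p = 0.0058) that was called without any 1 of the 12 arrays. Its Col-0 dark and pil5 arrays lay near the lower quartile of the arrays, as those of TUB1 did, and the table holds no background measure, so the size of the change is that of the signals as deposited. POR (AT4G39920), the tubulin folding cofactor C known as PORCINO, read 6.27, 5.80 and 6.01 in Col-0 dark and 7.50, 7.36 and 7.10 in Col-0 red. The log2 change of POR was 1.29 (SE 0.29, limma adjusted p = 0.013), and its call without the block ended without Col-0 red 1 (1.2, adjusted p = 0.059) or Col-0 dark 2 (1.18, adjusted p = 0.065). For PFI (AT1G71440), the folding cofactor E, it was 0.21 (SE 0.34, adjusted p = 0.81). PRL (AT4G02060), a subunit of the helicase that licenses DNA replication, had a change of 1.08 (SE 0.43, limma adjusted p = 0.13, and 0.0011 with the block).

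In pil5 dark against Col-0 dark, 1 of the 15 was lower and 0 higher without the block, and 4 were lower and 1 higher with it, where 12.1% of all probe sets were called, and 23.8% with the block (12.2% lower). The microtubule bundling protein ATMAP65-6 (AT2G01910) was lower, with a log2 change of -0.57 (SE 0.16, limma adjusted p = 0.037, and 0.0017 with the block), a call that without the block ended when any of 7 arrays was left out, with adjusted p up to 0.15. SPR1 (AT2G03680), a protein of growing microtubule ends, had a change of -0.72 (SE 0.24, limma adjusted p = 0.078, and 0.011 with the block). POR was higher by 0.81 (SE 0.29, limma adjusted p = 0.099, and 0.012 with the block). The blocked call ended for SPR1 without Col-0 dark 1 (-0.67, adjusted p = 0.057) and for POR without Col-0 dark 1 (0.79, adjusted p = 0.056), Col-0 dark 2 (0.62, adjusted p = 0.061) or pil5 dark 2 (0.71, adjusted p = 0.061). PRL (-0.62, adjusted p = 0.015) and SP1L3 (-0.42, adjusted p = 0.033), a relative of SPR1, were the other 2 lower with the block. The PRL call ended without Col-0 dark 1 (-0.59, adjusted p = 0.068) or pil5 dark 3 (-0.47, adjusted p = 0.071). The SP1L3 call ended without any of 7 arrays. SP1L3 read 4.84, 4.43 and 4.13 in pil5 dark, near the lower quartile of the arrays, and PRL came near it on pil5 dark 3, at 4.33. The red effect in pil5 was called for 0 of the 15.

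After red, 0 of the 15 differed between pil5 and Col-0 without the block and 4 were lower with it, where 0.193% of all probe sets were called, and 8.27% with the block (4.70% lower). These were PRL, with a log2 change of -1.70 (limma adjusted p = 0.14, and 0.00064 with the block), ACT11 with -1.47 (0.068, and 0.0057), SP1L3 with -0.73 (0.30, and 0.0083), and ATMAP65-6 with -0.43 (0.30, and 0.014). The ATMAP65-6 call ended without any of 4 arrays. The SP1L3 call was kept without any 1 of the 12 arrays. Its largest adjusted p, without Col-0 red 2 (-0.71), was below the threshold and rounds to 0.050. In the interaction 0 of the 15 passed without the block, where 6.34% of all probe sets did, and 3 were negative with it, where 17.5% passed and 8.73% were negative, POR at -1.39, ACT11 at -1.38 and PRL at -1.08 (limma adjusted p with the block 0.0098, 0.018 and 0.011), and the ACT11 call ended without Col-0 dark 1 (-1.24, adjusted p = 0.061), Col-0 dark 2 (-1.33, adjusted p = 0.062) or pil5 dark 2 (-1.23, adjusted p = 0.054). The tissue genes also differed between these groups. OLEO3 had a log2 change of -0.68 after red in Col-0 (limma adjusted p = 0.058, and 0.039 with the block) and of -0.83 in pil5 dark (adjusted p = 0.032), and RCA had -0.46 (adjusted p = 0.0097) and -0.62 (adjusted p = 0.0048). In the interaction OLEO3 was at 1.03 (limma adjusted p = 0.070, and 0.041 with the block) and RCA at 0.34 (0.18, and 0.11). In pil5 OLEO3 read 9.41, 9.49 and 8.75 in the dark and 9.31, 9.44 and 9.95 after red. The interaction was thus raised by number 3, with pil5 dark 3 and pil5 red 3. Fits with an array left out were not made for the tissue genes. Their part in the tubulin results was not tested.

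**Figure D5:**
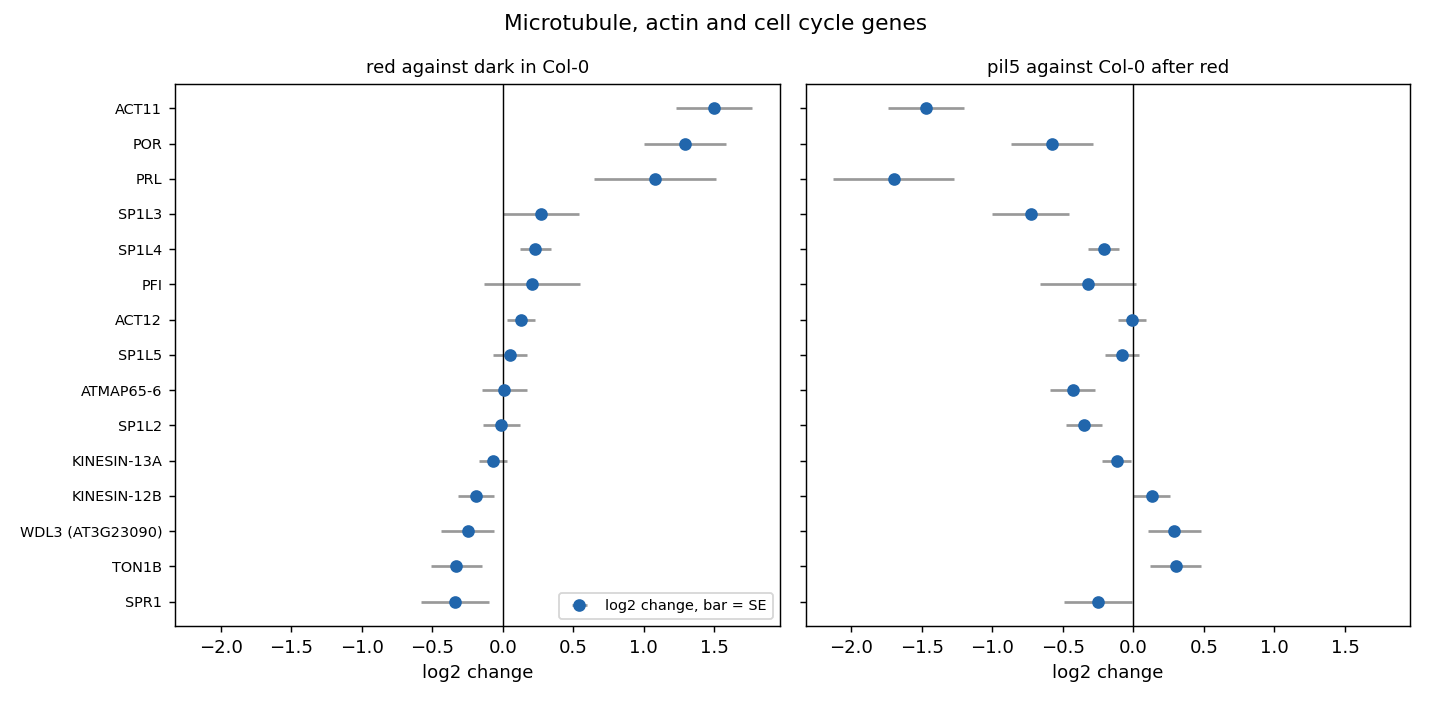
Log2 change (x axis, point) with its SE (bar) of the 15 measured microtubule, actin and cell cycle genes (rows) for red against dark in Col-0 (left) and pil5 against Col-0 after red (right), from limma without the block. ACT11, POR and PRL had the largest changes after red in Col-0, at 1.5, 1.29 and 1.08, and PRL and ACT11 were the lowest in pil5 after red, at -1.70 and -1.47.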

How the data were processed

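Affymetrix arrays of 12 RNA samples in 4 groups of 3 were analysed as deposited. The series table holds 1 value for each of 22810 probe sets on a log2 scale, deposited by the authors. MAS5 5.0 and RMA are named in the submitters' processing notes, with no role given, and the scale was read from the values. After 64 control probe sets were left out, 22746 were fitted with limma 3.58.1 (R 4.3.3, lmFit and eBayes), 1 mean per group, with Benjamini-Hochberg adjustment and a threshold of 0.05. The fit was tested on simulated data. Without the block the p-values rest on the spread within groups of 3 labelled biological replicates, pooled over the 4 groups and moderated by eBayes. With the block they rest on the spread that remains once the replicate number is taken out. The separate origin of the replicates is not described further. Precision is limited by the number of arrays.

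Same-numbered arrays deviated together in all 18 pairs across groups (r 0.17 to 0.71, against -0.68 to 0.41 in 36 pairs of different numbers), and 11 of 12 arrays correlated best with their own number. The number was therefore also fitted as a block. This pairing comes from the labels' replicate numbers and the data.

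Symbols came from the platform annotation (13513 probe sets with 1 gene, 503 with several, 8730 with none). All 7 tubulins were named, and other genes by listed symbols or by the 5 highest and 3 lowest correlations. Members and lists were chosen with earlier results of these data known. Other alternatives were median centring, quantile normalization, filters that dropped the dimmest 25% or 50%, a mean trend with robust variances, array weights, only the arrays compared, and leaving out each array. Coordinates and sequences were not used here. Figures were drawn with matplotlib 3.10.9.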

Additional observations from a re-analysis of the deposited data

Results flagged for a closer look

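The red effect in pil5 minus that in Col-0 was -2.34 for TUB5 and -1.08 for TUB1 on the log2 scale, and both differences were called by limma with the replicate number as a block (adjusted p = 0.00063 and 0.020) and not without it (0.25 and 0.17). For TUA6, at -0.78, and TUB9, at -0.29, every number was higher after red in Col-0. In pil5 every number was lower after red, but number 2 only by -0.02 for TUA6 and -0.01 for TUB9. Without pil5 red 3 the mean turned to 0.22 and 0.03 in the fit without the block. The test of the difference was not passed with the block (adjusted p = 0.092 for each) or without it (0.48 and 0.29). The probe set shared by TUA3 and TUA5, which is outside the 7 genes, was higher after red in Col-0 by 0.38 (limma adjusted p = 0.016). That call ended without Col-0 red 1 or Col-0 dark 2.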

How the results depend on the processing

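Without the block 0 of 7 tubulins were called in any comparison. With it 2 were called for red against dark in Col-0, 1 for pil5 against Col-0 in the dark, 3 after red, 3 for pil5 dark against Col-0 red and 2 for the interaction, and over all probe sets the calls for red in Col-0 went from 3443 to 6009 and for pil5 after red from 44 to 1880. Median centring and leaving out the dimmest 25% each called 1 for red in Col-0, TUB1 (adjusted p = 0.048 in each). Array weights called 3, 1, 3 and 3 in the first 4 of these comparisons, 1 for pil5 red against Col-0 dark and 2 for the interaction, moved the median of red in Col-0 from 0.21 to 0.28, and turned the sign of TUA6 in pil5 dark (0.05), TUB6 for red in pil5 (-0.13) and TUB1 for pil5 red against Col-0 dark (0.09). Quantile normalization, trend with robust variances and the fit of only the arrays compared called 0 throughout, and so did leaving out the dimmest 50%, which removed TUB1 and tested 6 genes. Shares over all probe sets were computed for the main and blocked fits alone. The counts under the other alternatives, left-out arrays included, therefore have no background beside them.

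With each array left out in turn, with the block (chosen after seeing the data) or without it, the calls ranged over 0 to 4 for red in Col-0, 0 to 2 for pil5 dark, 0 to 4 for pil5 after red, 0 to 5 for pil5 dark against Col-0 red, 0 to 2 for pil5 red against Col-0 dark and 0 to 3 for the interaction. Medians ranged from 0.18 to 0.38 for red in Col-0, from -0.37 to 0.18 for pil5 dark, from -0.30 to 0.18 for red in pil5 and from -0.47 to 0.09 for pil5 red against Col-0 dark. The interaction median ranged from -0.34 to -0.18 and that of pil5 dark against Col-0 red from -0.98 to -0.40. Signs turned 48 times, for values that were not called. In pil5 dark these ranged from -0.06 to 0.25 for TUA1, -0.41 to 0.18 for TUA6, -0.08 to 0.22 for TUB1 and -0.43 to 0.80 for TUB5. For red in pil5 they ranged from -0.22 to 0.09 for TUA1, -0.52 to 0.22 for TUA6, -0.30 to 0.09 for TUB1, -0.88 to 0.33 for TUB5, -0.47 to 0.49 for TUB6, -0.13 to 0.34 for TUB7 and -0.13 to 0.03 for TUB9. For pil5 red against Col-0 dark they ranged from -0.08 to 0.17 for TUA1, -0.64 to 0.09 for TUA6, -0.23 to 0.14 for TUB1 and -0.69 to 0.52 for TUB5, and for the interaction from -0.03 to 0.34 for TUA1, -0.07 to 0.88 for TUB6 and -0.32 to 0.16 for TUB7. Without pil5 red 3 the blocked calls were 4 for red in Col-0, 2 for pil5 dark and 3 for pil5 after red. They were 5 for pil5 dark against Col-0 red and 2 for the interaction. The cause was not tested. TUB1 lay near the lower quartile of the arrays, and TUB5 read 4.91, 5.10 and 4.85 in number 3 of Col-0 dark, pil5 dark and pil5 red. The values used hold no background measure.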
